A study of Mus musculus with 71 samples.

Results

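Replication-dependent histone genes supply the histones that package newly copied DNA, and 68 of the 25579 genes measured in early mouse B cells belonged to this family. They were all genes whose symbol begins with Hist1h, Hist2h, Hist3h or Hist4h, so membership rests on names and on no measured value. The family itself was chosen with earlier results of these data known. The number in the symbol names the genomic cluster (Hist1 54 genes, Hist2 10, Hist3 3, Hist4 1), and the letters after the h name the protein. There were 6 genes of the linker histone H1, 19 of H2A, 18 of H2B, 12 of H3 and 13 of H4. Of the 68, 61 were above 0 in at least 1 of 31 libraries, 7 were at 0 in all of them, and 58 passed the low-value filter (above 1 TPM, a transcript level normalised for gene length and depth, in at least 1 library) and were tested. A second set of files on lymphoid and T cell precursors listed 71 names of the family among 24420, of which 8 were at 0 in all 17 libraries and 59 were tested. Those 71 names stand for 66 symbols, because copies of a gene are listed apart there.

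As background, H2A, H2B, H3 and H4 form the core around which DNA is wound, and H1 binds the DNA between these cores. Their genes are transcribed mainly while DNA is replicated, and most of their messages end in a short stem-loop that the protein Slbp binds, where other messages carry a poly(A) tail. Some members also give polyadenylated messages, in particular in cells that have left the cell cycle.

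The study asked how single domains of Pax5, the transcription factor that commits progenitors to the B cell lineage, control development and gene expression. The Pax5 mutant and Cre lines were kept on C57BL/6 or backcrossed to it. The strain of the mice behind the lymphoid files is not given. All cells were sorted ex vivo by flow cytometry. Sorted pro-B cells came from the bone marrow of Pax5(+/+) mice (5 libraries) and from mice whose Pax5 alleles lack a named stretch (D stands for a deletion; 2 libraries a genotype). The central octapeptide motif is missing in Pax5(DOP/DOP), the homeodomain-like sequence in Pax5(DHD/DHD), and both in Pax5(DOP,HD/DOP,HD). The C-terminal regulatory domains are missing singly or jointly in Pax5(DCRD1/DCRD1), Pax5(DCRD2/DCRD2) and Pax5(DCRD1,2/DCRD1,2), and in Pax5(DCRD1/-), Pax5(DCRD2/-) and Pax5(DCRD1,2/-), whose other allele is null. Vav-Cre Pax5(fl/fl) mice (2 libraries) lose Pax5 in blood-forming cells, where the Vav promoter drives Cre, and gave progenitors sorted through another gate than the pro-B cells; Pax5(DCRD1,2/-) cells went through that gate too. A separate experiment of 6 libraries, all from mice with Vav-Cre, held Vav-Cre Pax5(fl/+) pro-B cells, Vav-Cre Pax5(Prd/fl) progenitors, in which only the DNA-binding paired domain is made, and Vav-Cre Pax5(fl/fl) progenitors. The lymphoid files held wild-type lymphoid-primed multipotent progenitors of the marrow (LMPP, 2 libraries), the successive CD4- CD8- thymocyte stages DN1 (3), DN2a (3), DN2b (3), DN3a (2) and DN3b (2), and Rag2(-/-) DN3a cells (2), which cannot rearrange antigen receptor genes. The labels give for each library neither the age of the mice nor whether libraries of a group came from separate animals, so p-values measure only the spread between libraries.

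The messages of the family are shown here by the stem-loop at their end, because messages that end in it lack the poly(A) tail used for selection. How far it sorts the levels of the members was not tested. Members annotated to end at it, such as Hist3h2a, were among the most abundant. In the RefSeq annotation of GRCm38.p6, a match to GGNNCTNNNNAGNNCC (N for any base, coding strand) stood within 100 bases after the stop codon in 63 of 67 members that matched 1 RefSeq gene, at a distance of 22 to 59 bases. The annotated transcript ended 4 to 8 bases past the match in 58 members. It ran further in 5, which were Hist1h2bc, Hist1h2be, Hist1h2bp, Hist1h2bq and Hist1h3e. All of these but Hist1h3e have 2 or 3 annotated transcripts, of which the furthest end was taken. The deposited values of Hist1h3e were worked out over about 470 bases, beside 911 in its annotated transcript. Its stretch past the stem-loop may thus be missing from its values in every sort by the annotated end below. No match was found in Hist1h2an and Hist2h2be. Hist1h2al and Hist3h2bb-ps are annotated as transcribed pseudogenes, which gives no stop codon to search from. They are counted below with the members that have no match, although they could not show one. The 7 sites below belong to members the results turn on, read 5′ to 3′ in the DNA letters of the coding strand, with the stem-loop match in capitals.
Hist3h2a (H2A): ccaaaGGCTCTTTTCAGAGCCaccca
Hist3h2ba (H2B): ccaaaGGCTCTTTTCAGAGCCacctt
Hist1h2bc (H2B): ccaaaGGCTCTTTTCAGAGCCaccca
Hist1h1c (H1): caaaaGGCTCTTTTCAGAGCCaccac
Hist1h4i (H4): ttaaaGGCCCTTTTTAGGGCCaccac
Hist1h4d (H4): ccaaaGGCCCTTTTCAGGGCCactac
Hist4h4 (H4): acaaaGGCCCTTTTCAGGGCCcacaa
The 63 matches took 8 distinct sequences. The capitals shared by Hist3h2a, Hist3h2ba, Hist1h2bc and Hist1h1c were identical although their genes lie on chromosomes 11 and 13, and the H4 genes shown carried another stem.

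Hist3h2a lies at chr11:58954685-58955192 (plus strand) and Hist3h2ba at chr11:58948911-58949372 (plus strand), 5774 bases apart from start to start. Hist1h2ac at chr13:23683473-23683959 (minus strand) and Hist1h2bc at chr13:23684199-23692480 (plus strand) start 240 bases apart and point away from each other. The bases before these starts are shown because the members of both places are the ones whose levels are followed library by library below. They come from RefSeq (GRCm38.p6) and are the 250 bases before the start, on the strand of the gene. The capitals mark the CCAAT box, the TATA box letters TATAAA and the octamer ATTTGCAT, each searched on both strands.
Hist3h2a, chr11:58954435-58954684: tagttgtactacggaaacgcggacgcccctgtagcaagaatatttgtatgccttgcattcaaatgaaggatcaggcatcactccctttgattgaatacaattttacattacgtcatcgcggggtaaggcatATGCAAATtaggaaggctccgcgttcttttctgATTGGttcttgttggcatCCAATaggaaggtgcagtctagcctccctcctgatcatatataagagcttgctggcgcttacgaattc
Hist3h2ba, chr11:58948661-58948910: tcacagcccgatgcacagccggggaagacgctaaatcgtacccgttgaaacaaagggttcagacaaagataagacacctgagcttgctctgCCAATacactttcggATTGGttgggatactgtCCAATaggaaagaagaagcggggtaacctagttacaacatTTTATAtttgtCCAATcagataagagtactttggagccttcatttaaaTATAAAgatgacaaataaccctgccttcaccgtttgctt
Hist1h2ac, chr13:23683960-23684209: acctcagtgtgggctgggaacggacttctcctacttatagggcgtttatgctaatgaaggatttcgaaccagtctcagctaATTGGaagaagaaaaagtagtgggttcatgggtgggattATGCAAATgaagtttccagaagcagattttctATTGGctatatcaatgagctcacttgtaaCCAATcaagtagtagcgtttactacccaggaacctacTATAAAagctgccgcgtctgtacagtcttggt
The promoter table (250 bases before to 50 after each start) held 61 members among 32851 promoters. CCAAT occurred in 85.2% of the members and in 37.4% of all promoters of the table, and TATAAA in 57.4% and 13.6%. All H1, H2A, H2B and H3 members in the table held CCAAT, against 3 of the 12 H4 members. The octamer occurred in 41.2% of the 17 H2A and 43.8% of the 16 H2B members, in no H1, H3 or H4 member, and in 1.74% of all promoters. These matches are descriptions of the sequence alone.

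Each member rested on few reads. Whole reads could be recovered for every library of the pro-B series, and totals ran from 10018678 to 43784791. The 5 Pax5(+/+) libraries held 3692 to 4573 reads of all 68 members together, 0.0131 to 0.0152% of their reads. The libraries of Vav-Cre Pax5(fl/fl) progenitors, the shallowest pair, held 1434 and 974, and 34 and 39 of the 58 tested members had fewer than 10 reads in them. Pax5 itself read 342 to 524 TPM in Pax5(+/+) and 1609 and 1697 TPM in Vav-Cre Pax5(fl/fl), so its gene-level value does not read the deleted part. The T cell gene Cd3e read 0.66 and 0.56 TPM in LMPP and 2181 and 2219 TPM in DN3a. Members share sequence: in 34 of them more than 50% of the 50-base stretches of the transcript recur in another member, and 6 have no such stretch. Reads from shared stretches could not be given to 1 gene, which bears on Hist1h3b (77.2% shared), Hist1h2an (69.5%), Hist1h2ac (64.6%) and Hist1h4i (55.4%) far more than on Hist1h1c (19.1%) or Hist3h2a (9.15%). It also bears on members at 0 in all libraries, such as Hist2h2aa1 (96.1%) and Hist1h4m (89.9%), where 0 need not mean that no message was made.

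In Pax5(+/+) pro-B cells the family added up to 619, 667, 586, 521 and 622 TPM, and 5 members made 45.2% of that sum. Hist3h2a, an H2A gene, stood first with 128, 162, 104, 75.7 and 99.3 TPM in replicates 1 to 5 (mean 114 ± 32.7, SD, n = 5). Hist1h4i, an H4 gene, followed with 43.4, 41.1, 62.7, 55.5 and 51 TPM. The H2B gene Hist3h2ba read 41.9, 49.4, 41.0, 39.5 and 48.0 TPM. These ranges show that Hist3h2a lay above the others in every library, while Hist1h4i and Hist3h2ba overlapped. Hist1h2bc (H2B) read 33.4, 39.6, 21.5, 25.8 and 44.5 TPM, and Hist1h1c, a linker histone gene, 29.3, 29.9, 29.8, 29.7 and 35.5 TPM. Both overlapped in range. The second highest members of the H2A, H4 and H1 classes were lower, with means over the 5 libraries of 19.6 TPM for Hist1h2ak (H2A), 15 for Hist1h4d (H4) and 13.6 for Hist1h1a (H1). The highest H3 genes were Hist1h3c and Hist1h3g, at means of 8.98 and 7.86 TPM. The 3 genes of the Hist3 cluster, 1 of them a pseudogene, made 22.3 to 31.8% of the family's sum, and the 54 genes of the Hist1 cluster 58.9 to 68.4%.

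**Figure D1:**
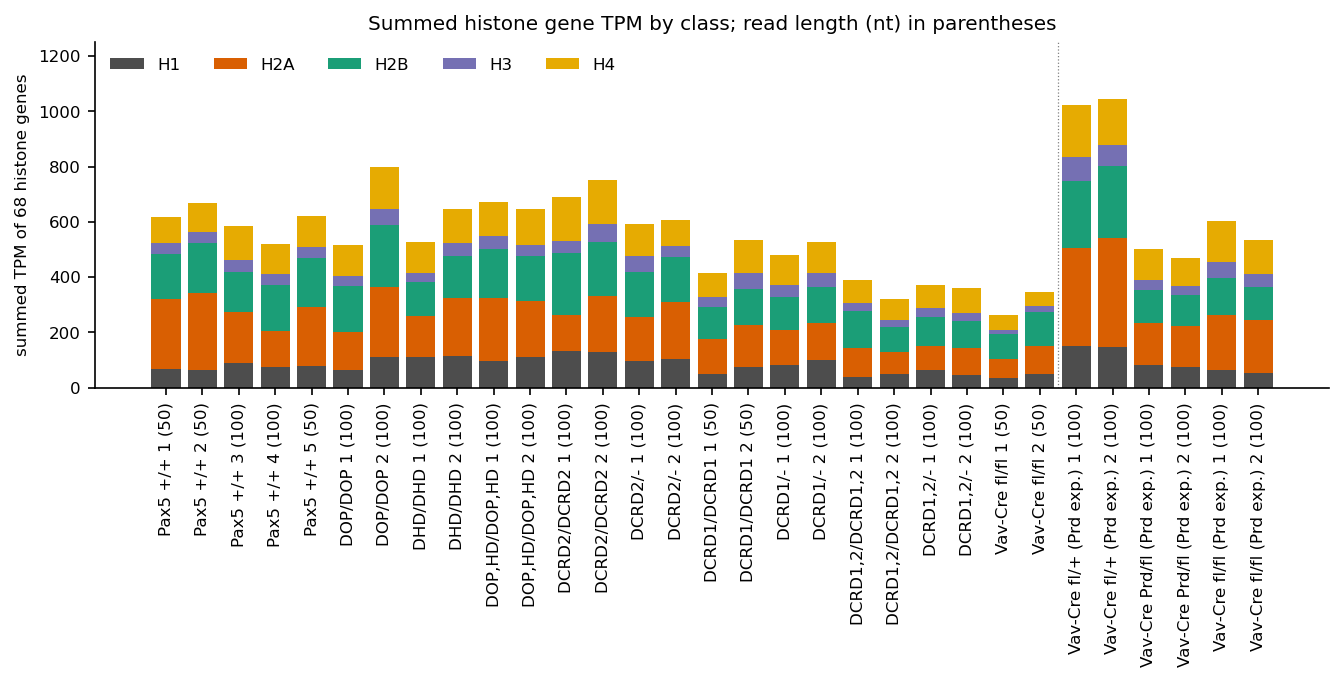
Summed TPM of the 68 histone genes in each of the 31 libraries of the pro-B series, stacked by class (H1, H2A, H2B, H3, H4); the read length in nt is in parentheses and a dotted line sets off the separate experiment with the Prd allele. The sums run from 262 TPM in a Vav-Cre Pax5(fl/fl) library to 1046 TPM in a Vav-Cre Pax5(fl/+) library.

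Read length divided the Pax5(+/+) libraries, 3 sequenced at 50 nt and 2 at 100 nt, although the reads were cut to 50 bases before alignment. In a limma fit on log2(TPM + 0.1) with Benjamini-Hochberg adjustment over all genes, called at an adjusted p under 0.05, 1 of 58 members was higher at 50 nt, against 6.29% of all 14000 genes. It was Hist1h2ac, at 7.96, 6.89 and 9.02 TPM at 50 nt and 1.98 and 1.58 TPM at 100 nt. The log2 difference was 2.10 (SE 0.38, adjusted p = 0.00616), the ranges did not overlap, and edgeR on the recovered reads called 1 member too. Without replicate 3, which leaves 1 library at 100 nt, it was not called. Over the members the median difference was 0.11, beside 0.17 over all genes. The H2A genes had a median of 0.73 and lay above 0 in 14 of 15 cases, while no H2A gene but Hist1h2ac passed the test. Hist3h2a differed by 0.52 (SE 0.26, adjusted p = 0.222) and Hist1h2bc by 0.72 (SE 0.31, adjusted p = 0.16). Read length and whatever else set these runs apart cannot be told apart. Each genotype was therefore compared with Pax5(+/+) libraries of its own read length through a read length term.

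Loss of Pax5 went with lower levels of many members, and no member was higher. In Vav-Cre Pax5(fl/fl) progenitors 31 of 58 members stood below their Pax5(+/+) level, against 17.5% of all genes (edgeR called 21, and limma without replicate 1 of the progenitors 19). The family summed to 262 and 347 TPM, below all 5 Pax5(+/+) libraries. The median member stood 1.35 lower on the log2 scale (−1.35), with 54 of 58 below 0, beside a median of 0.00 over all genes. In bulk RNA of sorted cells, fewer cells that make a message and less message per cell cannot be told apart.

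By class, 12 of 15 H2A genes were lower (median log2 difference −1.88), 6 of 10 H3 genes (−1.34), 6 of 17 H2B genes (−1.18), 4 of 11 H4 genes (−1.14) and 3 of 5 H1 genes (−0.69). By cluster, 23 of 48 Hist1 genes, 5 of 6 Hist2 genes, 2 of 3 Hist3 genes and Hist4h4 were lower. Hist3h2ba was at 5.06 and 13.0 TPM, against 41.9, 49.4 and 48.0 TPM in the 50 nt Pax5(+/+) libraries, and the groups did not overlap (log2 difference −2.50, SE 0.28, limma adjusted p = 1.93e-06). Hist3h2a fell to 41.6 and 59.6 TPM against 128, 162 and 99.3 TPM (−1.35, SE 0.26, adjusted p = 0.000487). Its neighbour on the chromosome thus changed by more on the log2 scale, a difference that was not itself tested. Among the other H2A genes, Hist1h2ab read 0.771 and 2.07 TPM against 16.5, 4.55 and 15.4 TPM (−2.95, SE 0.50, adjusted p = 0.000157). Hist1h2ak read 2.18 and 5.36 TPM against 24.4, 34.7 and 16.4 TPM (−2.77, SE 0.47, adjusted p = 0.000146). Hist1h2an, one of the members with no stem-loop match, read 1.45 and 2.34 TPM against 12.1, 15.2 and 12.1 TPM (−2.76, SE 0.46, adjusted p = 0.000126). In each of these H2A genes the groups stayed apart.

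The members with the largest fitted differences had almost no reads left. Hist1h2aa (H2A) had 0 reads in the 2 Vav-Cre Pax5(fl/fl) libraries and 37 in the 3 Pax5(+/+) libraries of 50 nt, at least 4.31-fold lower per read sequenced when 3 reads over the group are taken as the floor. Hist1h3b (H3) had 2 reads against 34, a ratio of 0.169 (95% interval 0.0196 to 0.657, counting error only), and passed the limma test (adjusted p = 0.0347). Hist4h4, the lone gene of its cluster, read 1.48 and 1.78 TPM against 4.32, 5.67 and 6.82 TPM (−1.70, SE 0.55, adjusted p = 0.0211). These libraries differ by more than their spread, but the depth leaves the size of the change wide.

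Not every abundant member moved. Hist1h2bc read 43.1 and 53.0 TPM in the progenitors and 33.4, 39.6 and 44.5 TPM in Pax5(+/+) (0.30, SE 0.31, adjusted p = 0.509), and the ranges overlapped. Hist2h2be, an H2B gene of the Hist2 cluster with no stem-loop match, read 17.9 and 25.8 TPM against 28.9, 22.4 and 17.0 TPM (−0.05, SE 0.25, adjusted p = 0.905). Among the linker histones, Hist1h1a read 3.66 and 4.21 TPM against 12.3, 9.52 and 13.9 TPM (−1.56, SE 0.31, adjusted p = 0.000613), while Hist1h1c read 16.8 and 26.3 TPM against 29.3, 29.9 and 35.5 TPM (−0.58, SE 0.21, adjusted p = 0.0433), a call that did not hold when any 1 of the 5 Pax5(+/+) libraries or replicate 1 of the progenitors was left out (adjusted p of 0.0503 to 0.484). Hist1h4i, the most abundant H4 gene, read 26.4 and 21.4 TPM against 43.4, 41.1 and 51 TPM (−0.92, SE 0.18, adjusted p = 0.000693). Sorted by the annotated end, 29 of the 50 tested members that end within 8 bases of the stem-loop were lower (median −1.41). Of the 4 that run past it 0 were lower (median −0.15), also at an unadjusted p under 0.05 and by edgeR. In the 2 progenitor libraries Hist1h2bp had 2 and 3 reads, Hist1h3e 10 and 9 and Hist1h2be 21 and 17. A change in these could easily be missed. Of the 4 with no match 2 were lower. The members that run past it include Hist1h3e, whose counted length was shorter than its annotated transcript.

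**Figure D2:**
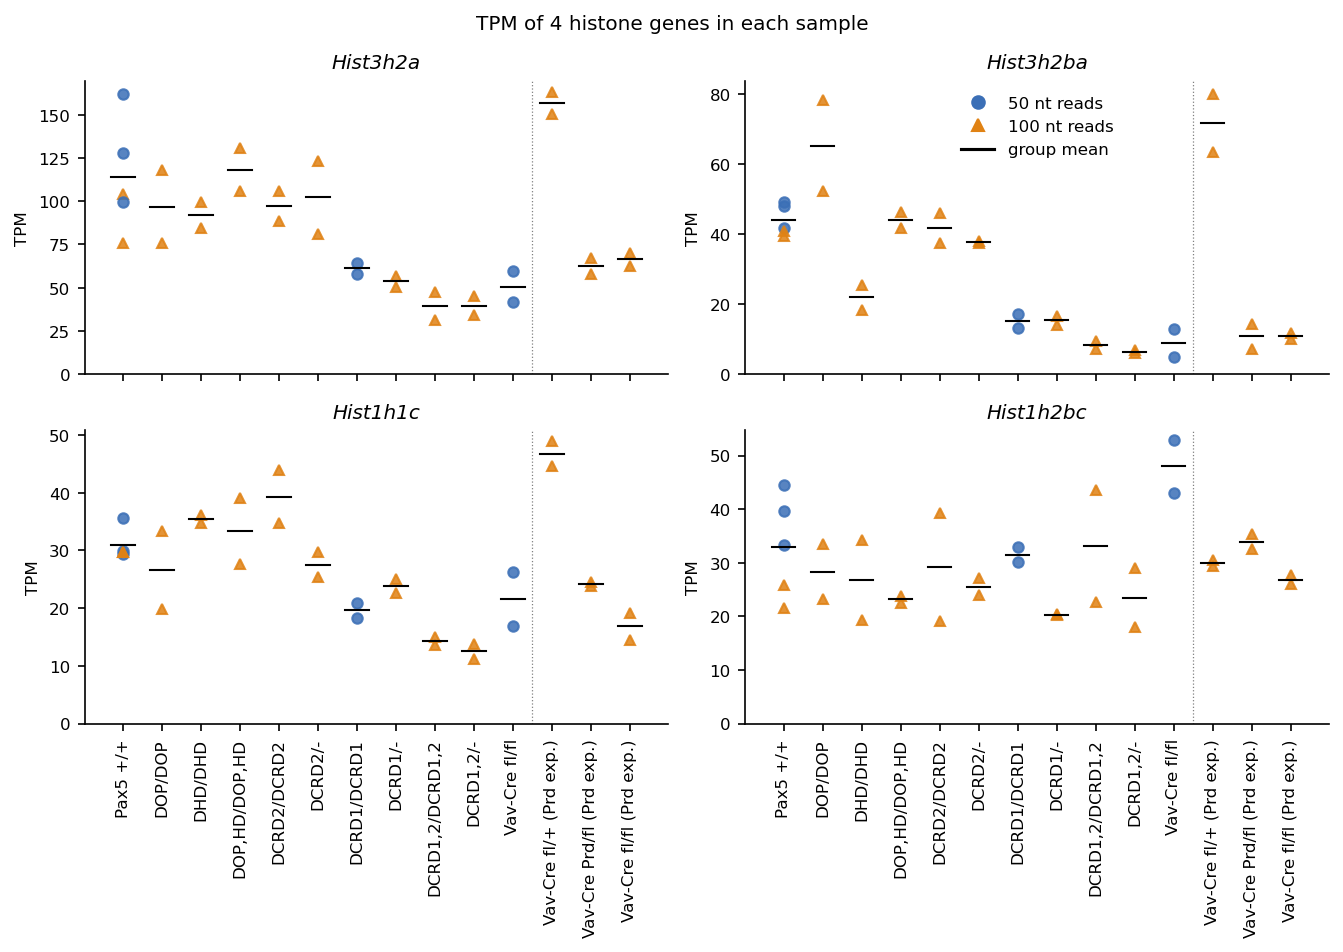
TPM of Hist3h2a, Hist3h2ba, Hist1h1c and Hist1h2bc in each library, by genotype; circles are 50 nt and triangles 100 nt libraries, and black lines are group means. Hist3h2ba is at 39.5 to 49.4 TPM in Pax5(+/+) and at 5.93 to 17.2 TPM wherever CRD1 is deleted, while Hist1h2bc is at 18.0 to 43.6 TPM there and at 21.5 to 44.5 TPM in Pax5(+/+).

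Where C-terminal domains were missing few members passed the test, a share near or below that of all genes in each genotype. Hist3h2ba was among those called lower in the 4 genotypes that lack CRD1, and Hist3h2a in 3 of them. In Pax5(DCRD1/-) pro-B cells 1 of 58 members was lower (6.71% of all genes), Hist3h2ba, at 16.6 and 14.1 TPM against 41.0 and 39.5 TPM in Pax5(+/+) of 100 nt (log2 difference −1.39, SE 0.31, limma adjusted p = 0.00587). Without replicate 2 of this genotype no member passed. Hist3h2a read 50.5 and 56.8 TPM against 104 and 75.7 TPM there (−0.73, SE 0.28, adjusted p = 0.112). In Pax5(DCRD1/DCRD1) cells, sequenced at 50 nt, 3 members were lower (5.10% of all genes) and 1 was higher (4.53%). Hist3h2ba read 13.1 and 17.2 TPM (−1.62, SE 0.28, adjusted p = 0.00112) and Hist3h2a 58.0 and 64.3 TPM (−1.06, SE 0.26, adjusted p = 0.0137). Both lay below all 5 Pax5(+/+) libraries. The third was Hist1h2ac, at 1.70 and 2.66 TPM (−1.84, SE 0.38, adjusted p = 0.00425). This level lay below the 50 nt Pax5(+/+) libraries but overlapped the 100 nt pair (1.98 and 1.58 TPM), so it rests on the read length term. The member that rose was the H3 gene Hist1h3a, at 9.25 and 11.7 TPM against 4.98, 3.82 and 3.98 TPM (1.28, SE 0.38, adjusted p = 0.0395). Of the 4 calls 1 was left without replicate 1 of this genotype, and 2 without its replicate 2 or without Pax5(+/+) replicate 2.

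When both domains were missing the calls rose to 5 in Pax5(DCRD1,2/-) and 8 in Pax5(DCRD1,2/DCRD1,2), all lower, against 15.8% and 15.6% of all genes. Both counts lie below the share over all genes (edgeR called 3 and 4), and the members' medians were −0.48 and −0.53 on the log2 scale beside −0.04 and 0.00 over all genes. Without Pax5(+/+) replicate 3 the counts were 3 and 2, without Pax5(+/+) replicate 4 the first was 3, and without replicate 1 of Pax5(DCRD1,2/-) it was 8. Hist3h2ba read 5.93 and 7.01 TPM in Pax5(DCRD1,2/-) (−2.62, SE 0.31, adjusted p = 6.78e-06) and 9.49 and 7.09 TPM in Pax5(DCRD1,2/DCRD1,2) (−2.28, SE 0.31, adjusted p = 3.31e-05). Hist3h2a read 34.0 and 45.0 TPM (−1.18, SE 0.28, adjusted p = 0.00482) and 47.6 and 31.1 TPM (−1.21, SE 0.28, adjusted p = 0.0042). All of these values lay below every Pax5(+/+) library. With 1 library left out at a time Hist3h2ba passed in each fit of both genotypes, while Hist3h2a missed the threshold without Pax5(+/+) replicate 3 in both, and without replicate 1 of Pax5(DCRD1,2/-) or replicate 2 of Pax5(DCRD1,2/DCRD1,2). The linker histone Hist1h1c was lower in both, at 11.2 and 13.9 TPM (−1.25, SE 0.24, adjusted p = 0.000753) and 15 and 13.6 TPM (−1.06, SE 0.24, adjusted p = 0.0028), where Pax5(+/+) never fell under 29.3 TPM. Hist1h4i, whose reads are shared with other H4 genes, was lower in both as well, by −0.57 (adjusted p = 0.0461) and −0.65 (adjusted p = 0.0237). The fifth in Pax5(DCRD1,2/-) was Hist1h2an, at 1.38 and 3.62 TPM (−1.48, SE 0.50, adjusted p = 0.0387). In Pax5(DCRD1,2/DCRD1,2) the others were Hist1h3g at 2.59 and 2.76 TPM (−1.42, SE 0.38, adjusted p = 0.0109), the H4 gene Hist2h4 at 2.08 and 5.82 TPM (−1.44, SE 0.51, adjusted p = 0.0447), and the linker histones Hist1h1a and Hist1h1d (−0.98 each, adjusted p = 0.0402 and 0.0497).

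The Hist3 pair also stands out against the rest of the family's own sum, given as a description. Hist3 genes made 13.7 and 14.3% of the summed TPM in Pax5(DCRD1/-), 15.3 and 17.1% in Pax5(DCRD1/DCRD1), 11.1 and 14.5% in Pax5(DCRD1,2/-) and 12.1 and 14.7% in Pax5(DCRD1,2/DCRD1,2), all below the lowest Pax5(+/+) library at 22.3%. Pax5(DHD/DHD), at 19.4 and 19.5%, and Pax5(DCRD2/DCRD2), at 18.5 and 20.3%, were below it too, by less. In Vav-Cre Pax5(fl/fl) the share was 18.6 and 21.1%, since other members were low there too. Hist1h2bc and Hist2h2be did not pass the test in any of the 4 genotypes, with log2 differences between −0.31 and 0.41 and between −0.47 and 0.16.

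Deletion of CRD2 alone or of the central domains gave no call in the family. The counts were 0 of 58 in Pax5(DCRD2/DCRD2) (0.114% of all genes called in either direction), Pax5(DCRD2/-) (1.50%), Pax5(DOP/DOP) (1.02%), Pax5(DHD/DHD) (1.00%) and Pax5(DOP,HD/DOP,HD) (1.78%), by limma as well as by edgeR. At an unadjusted p under 0.05 the limma counts were 8, 3, 7, 5 and 2. Without replicate 2 of Pax5(DCRD2/DCRD2) 5 members were called there, and without replicate 2 of Pax5(DHD/DHD) 1. The members' medians were 0.35, 0.11, 0.24, 0.06 and 0.26 on the log2 scale, where all genes had medians of −0.02 to 0.04. The summed TPM ranged from 516 to 800, which are the 2 Pax5(DOP/DOP) libraries. Granulocyte markers differed widely between libraries. In replicates 1 and 2 they summed to 10038 and 619 TPM in Pax5(DCRD2/DCRD2), 16899 and 1116 in Pax5(DCRD2/-) and 7663 and 7988 in Pax5(DOP/DOP). They summed to 470 and 1790 TPM in Pax5(DHD/DHD), 641 and 6926 in Pax5(DOP,HD/DOP,HD) and 846 to 7022 in Pax5(+/+). Erythroid markers summed to 8842 and 1690 TPM in Pax5(DCRD2/DCRD2). The part of these markers in the counts was not tested. Hist3h2ba read 37.4 and 46.0 TPM in Pax5(DCRD2/DCRD2), 37.7 and 38.2 TPM in Pax5(DCRD2/-) and 41.8 and 46.5 TPM in Pax5(DOP,HD/DOP,HD). It read 52.3 and 78.4 TPM in Pax5(DOP/DOP) (0.67, SE 0.31, adjusted p = 0.284), above every Pax5(+/+) library. It read 18.4 and 25.6 TPM in Pax5(DHD/DHD) (−0.89, SE 0.31, adjusted p = 0.255), below all of them. Neither passed the test. Hist1h1c, Hist1h2bc, Hist2h2be and Hist3h2a differed by −0.26 to 0.40 in these 5 genotypes, and Hist4h4, at 2.70 to 14.9 TPM, by −0.16 to 0.86.

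**Figure D3:**
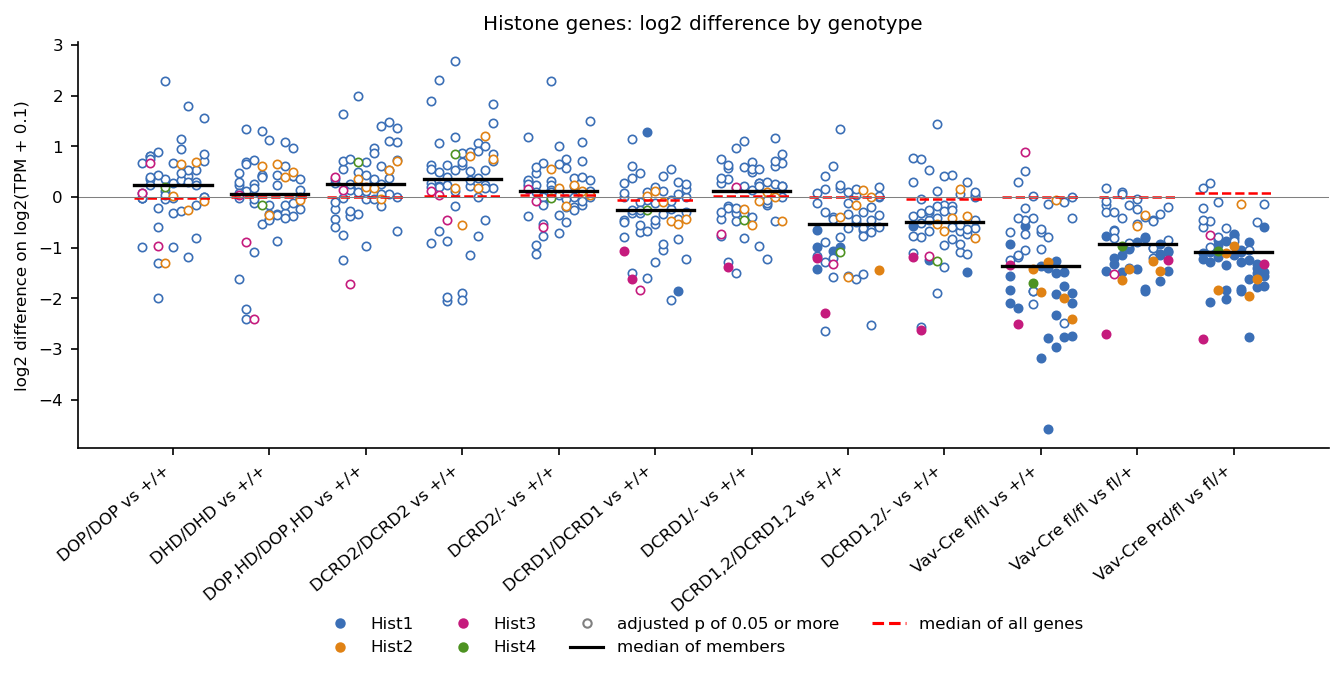
Log2 difference of each tested histone gene in each genotype comparison of the pro-B series, coloured by cluster; filled points passed the test, black lines are the members' medians and red dashed lines the medians of all genes tested. The medians lie at −1.35 for Vav-Cre Pax5(fl/fl) and between −0.53 and 0.35 for the domain deletions.

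Genes of other processes moved with these calls, and their part in the histone levels was not tested. Of 30 genes used in G2 and mitosis, 30 were lower in Vav-Cre Pax5(fl/fl), 27 in Pax5(DCRD1,2/DCRD1,2), 24 in Pax5(DCRD1,2/-), 18 in Pax5(DCRD1/DCRD1) and 14 in Pax5(DCRD1/-), and their summed level was 4459 to 7008 TPM in Pax5(+/+) and 1223 to 3892 TPM in those 5 genotypes. Of 44 genes of S phase, in which the members are transcribed, 5 were higher and 16 lower in Vav-Cre Pax5(fl/fl), with sums of 9516 and 8736 TPM beside 8774 to 10916 TPM in Pax5(+/+). In Pax5(DCRD1,2/-) 16 were higher and 3 lower, and in Pax5(DCRD1,2/DCRD1,2) 10 were higher and 3 lower. Of 12 RNAs without a poly(A) tail that were tested, 0 passed in Vav-Cre Pax5(fl/fl) (median −0.09) and 1 was lower in each of the genotypes without both C-terminal domains. Erythroid markers were lower in 7 and higher in 1 of 10 cases in Pax5(DCRD1,2/-), and lower in 5 and higher in 1 of 10 in Pax5(DCRD1,2/DCRD1,2). Their sums were 1031 to 2091 TPM against 1449 to 3980 TPM in Pax5(+/+), with Hba-a1, Hba-a2, Hbb-b1 and Hbb-bs at 0 in all libraries. Macrophage markers were lower in 6 and 4 of 10 cases there (sums 138 to 208 TPM against 120 to 531 TPM). Of 8 markers of T cell precursors, 6 were higher in Vav-Cre Pax5(fl/fl). Granulocyte markers were higher there in 1 of 10 cases, with sums of 4890 and 584 TPM against 846 to 7022 TPM in Pax5(+/+).

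The separate experiment gave the loss of Pax5 a comparison with its own controls. By the labels both progenitor groups were taken with an alternative gate while the controls were pro-B cells, so genotype, gate and cell stage cannot be told apart in it. In Vav-Cre Pax5(fl/fl) progenitors 30 of 57 members were lower than in Vav-Cre Pax5(fl/+) pro-B cells (19.1% of all 12941 genes; edgeR called 26), and none was higher. The family summed to 605 and 533 TPM against 1022 and 1046 TPM, and the median member differed by −0.92 on the log2 scale, beside 0.00 over all genes. With 2 libraries a group the count leans on single ones: it was 14 and 13 without either control library and 18 without replicate 2 of the progenitors. The 2 comparisons of Pax5-deficient progenitors share no library: 23 members were lower in both, 74.2% of the 31 and 76.7% of the 30. The same overlap over all genes was not worked out, and both comparisons set progenitors against pro-B cells. The overlap is therefore no result about the family. All 5 linker histone genes tested were lower here (median −1.42), as were 11 of 15 H2A (−1.21), 8 of 16 H2B (−0.87), 4 of 10 H3 (−0.85) and 2 of 11 H4 genes (−0.34).

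Hist3h2ba showed the largest difference of the members tested, at 10.1 and 11.7 TPM against 63.5 and 80.1 TPM (log2 difference −2.70, SE 0.31, limma adjusted p = 0.00101). Hist3h2a read 70.2 and 62.5 TPM against 150 and 163 TPM (−1.24, SE 0.11, adjusted p = 0.000331), and Hist1h1c 19.2 and 14.5 TPM against 44.5 and 48.9 TPM (−1.48, SE 0.15, adjusted p = 0.000566). In none of these did the groups overlap. Of the next largest, Hist1h3d read 2.13 and 1.64 TPM against 6.50 and 7.64 TPM (−1.86, SE 0.31, adjusted p = 0.00411) and Hist1h2aa 1.43 and 1.34 TPM against 4.98 and 5.26 TPM (−1.82, SE 0.26, adjusted p = 0.0022). Hist1h2ac and Hist2h2ab, both H2A genes, differed by −1.66 (SE 0.31, adjusted p = 0.00705) and −1.64 (SE 0.53, adjusted p = 0.0468), and Hist4h4 by −0.97 (SE 0.19, adjusted p = 0.00776). Hist1h4i, at 64.3 and 54.9 TPM against 75.2 and 61.8 TPM, overlapped (−0.20, adjusted p = 0.27). Hist1h2bc read 27.6 and 26.1 TPM against 30.6 and 29.5 TPM (−0.16, SE 0.09, adjusted p = 0.221) and Hist2h2be 11.7 and 13.0 TPM against 15.3 and 16.4 TPM (−0.36, SE 0.12, adjusted p = 0.0504). Neither H2B gene passed the test, though their ranges did not overlap. Sorted by the annotated end, 28 of 49 members ending at the stem-loop were lower (median −0.92), as were 1 of the 4 that run past it (−0.57) and 1 of the 4 with no match (−1.16).

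With the paired domain alone, in Vav-Cre Pax5(Prd/fl) progenitors, 41 of 57 members were lower than in Vav-Cre Pax5(fl/+) cells (16.6% of all genes; edgeR called 39, and limma 26 and 27 without either control library). The sums were 503 and 471 TPM and the median member differed by −1.09, beside 0.08 over all genes. Counts by class were 14 of 15 H2A, 10 of 16 H2B, 8 of 10 H3, 5 of 11 H4 and 4 of 5 H1 genes. Hist3h2ba read 14.4 and 7.17 TPM (−2.80, SE 0.31, adjusted p = 0.000873), Hist3h2a 67.3 and 58.0 TPM (−1.32, SE 0.11, adjusted p = 0.000243), Hist1h1c 24.5 and 23.8 TPM (−0.95, SE 0.15, adjusted p = 0.00318) and Hist4h4 4.76 and 4.68 TPM (−1.07, SE 0.19, adjusted p = 0.00525). Each lay below both control libraries. The other large differences were in Hist1h2ab (2.71 and 6.67 TPM against 25.3 and 34.6 TPM; −2.77, adjusted p = 0.00259), Hist1h2bp (−2.07, adjusted p = 0.00688), Hist1h2ah (−2.0, adjusted p = 0.00165) and the H3 gene Hist2h3b (−1.94, adjusted p = 0.00243). Hist1h2bc (0.17, adjusted p = 0.185) and Hist2h2be (−0.13, adjusted p = 0.419) did not pass. Sorted by the annotated end, 37 of 49 members ending at the stem-loop, 2 of the 4 that run past it and 2 of the 4 with no match were lower.

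The comparison of Vav-Cre Pax5(Prd/fl) with Vav-Cre Pax5(fl/fl) progenitors, which shares its libraries with the 2 before it, gave 2 lower members of 57 (0.796% of all genes; edgeR called 1, and leaving out each library in turn gave 0 to 6). These were the H2A gene Hist1h2ag, at 14.5 and 14.4 TPM against 28.4 and 28.0 TPM (−0.96, SE 0.09, adjusted p = 0.0104), with 81.6% of its 50-base stretches in other members, and Hist1h3a, at 5.44 and 5.80 TPM against 10.1 and 9.32 TPM (−0.77, SE 0.14, adjusted p = 0.0494). Hist3h2a and Hist3h2ba differed by −0.08 (SE 0.11, adjusted p = 0.691) and −0.09 (SE 0.31, adjusted p = 0.888). The fixed members Hist1h1c, Hist1h2bc, Hist2h2be and Hist4h4 lay between −0.10 and 0.53 and did not pass either. G2 and mitosis genes were lower in 27 of 30 cases in Vav-Cre Pax5(fl/fl) against controls, in 29 of 30 in Vav-Cre Pax5(Prd/fl) against controls, and in 20 of 30 between the mutants, with sums of 5429 and 5335, 2712 and 2651, and 1449 and 1345 TPM in control, Vav-Cre Pax5(fl/fl) and Vav-Cre Pax5(Prd/fl) libraries. Granulocyte markers were higher in 9 of 10 cases in Vav-Cre Pax5(fl/fl) against controls (sums 860 and 459 TPM against 122 and 202 TPM). Of 12 RNAs without a poly(A) tail, 1 was higher in Vav-Cre Pax5(fl/fl) and 4 were lower in Vav-Cre Pax5(Prd/fl) against controls. The part of these lists in the histone levels was not tested.

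In the lymphoid files, which were normalised apart from the others and whose depth is unknown, the family was most abundant up to the DN2b stage and then dropped. It summed to 1263 and 2075 TPM in LMPP, 989 to 1241 TPM in DN1, 1320 to 1535 TPM in DN2a and 1535, 2892 and 2240 TPM in DN2b. In DN3a the sums were 226 and 170 TPM. They were 583 and 860 TPM in Rag2(-/-) DN3a and 578 and 528 TPM in DN3b. The DN3a libraries thus lay below all 15 others. Averaged over the 17 libraries, which pools the stages, the highest members of each class were Hist1h4d (H4, mean 89.4 TPM), Hist1h2ak (H2A, 53.6), Hist1h1b (H1, 48.8), Hist1h3e (H3, 45.6) and Hist2h2bb (H2B, 44.3). The order changed with the stage. In DN3a the highest members of the H2A, H2B, H1 and H4 classes were Hist3h2a, Hist3h2ba, Hist1h1c and Hist1h4i, at means of 36.5, 34.4, 19.1 and 11.9 TPM, the same genes that led these classes in Pax5(+/+) pro-B cells. In DN1 the highest H2B gene was Hist1h2bc, at 71.6 TPM.

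Between the early stages few members changed. From LMPP to DN1, 3 of 59 were lower (11.9% of all 13482 genes): Hist1h2bm (13.0 and 22.8 TPM, then 6.59, 8.19 and 8.71 TPM; log2 difference −1.14, SE 0.31, limma adjusted p = 0.0182), Hist1h2af (−1.09, SE 0.31, adjusted p = 0.0222) and Hist2h4 (−0.94, SE 0.31, adjusted p = 0.046). From DN1 to DN2a, 4 were higher (10.9%) and 3 lower (22.9%). Hist1h2bm (0.93, SE 0.28, adjusted p = 0.0198), Hist1h1b (0.88, SE 0.28, adjusted p = 0.0296), Hist1h2bj (0.81, SE 0.29, adjusted p = 0.0428) and Hist2h4 (0.75, SE 0.27, adjusted p = 0.0481) rose. Hist1h2bc (−0.58, SE 0.20, adjusted p = 0.041), Hist2h2be (−0.56, SE 0.14, adjusted p = 0.00879) and Hist3h2a (−0.51, SE 0.15, adjusted p = 0.0225) fell. With TPM rescaled by the median ratio, which moves the median of all genes from −0.18 to −0.04, the split was 6 higher and 0 lower. The rise of the members' median, 0.44 beside −0.18 over all genes, stood at 0.59 after rescaling. From DN2a to DN2b 4 were higher (9.80%): Hist3h2ba (8.95, 8.12 and 4.62 TPM, then 13.5, 18.8 and 27.8 TPM; 1.45, SE 0.28, adjusted p = 0.00235), Hist2h4 (0.89, SE 0.27, adjusted p = 0.0367), Hist1h1b (0.88, SE 0.28, adjusted p = 0.0446) and Hist2h2be (0.68, SE 0.14, adjusted p = 0.00407). In DN1, DN2a and DN2b, 2 of the 3 libraries carry the same replicate number and may not be independent. When such libraries were averaged, an alternative chosen after the data were seen, Hist1h2af and Hist2h4 from LMPP to DN1, Hist2h4 and Hist1h1b from DN2a to DN2b, and the DN1 to DN2a calls other than Hist2h2be no longer passed. Leaving out each library in turn gave 0 to 4 calls from LMPP to DN1, 1 to 8 from DN1 to DN2a and 2 to 11 from DN2a to DN2b.

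From DN2b to DN3a nearly the whole Hist1 cluster fell. Of 59 members 51 were lower (14.4% of all genes) and 2 higher (31.4%), with a median log2 difference of −4.69 beside 0.27 over all genes. The difference was below −3 in 44 members, below −4 in 38 and below −5 in 23. Counts of lower members were 45 of 47 in the Hist1 cluster (median −4.93), 5 of 8 in Hist2, 0 of 3 in Hist3 and 1 of 1 in Hist4. By class they were 5 of 5 H1 (median −4.61), 12 of 14 H2A (−5.00), 13 of 16 H2B (−4.42), 10 of 12 H3 (−5.01) and 11 of 12 H4 genes (−5.06). Rescaling, which brings the median of all genes to 0.04, left 51 lower and 0 higher members, so the 2 higher calls depend on it. Over all genes it moved the split from 4232 higher and 1943 lower to 2941 and 2818.

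Hist1h4d, the most abundant member, read 101, 184 and 147 TPM in DN2b and 2.73 and 2.4 TPM in DN3a. The linker histone Hist1h1b read 76.5, 171 and 118 TPM, then 3.96 and 3.20 TPM. Hist1h3b showed the largest fitted difference, from 27.3, 64.2 and 53.5 TPM to 0 and 0.228 TPM (−7.97, SE 0.55, limma adjusted p = 1.88e-07). All 3 dropped far outside the spread of their libraries. Next came Hist1h2bf (16.8, 33.6 and 28.9 TPM, then 0.121 and 0 TPM; −7.42, SE 0.38, adjusted p = 1.4e-08), Hist1h2bb (−7.33, SE 0.71, adjusted p = 3.43e-06) and Hist1h4a (−6.65, SE 0.59, adjusted p = 1.61e-06). The H2A gene Hist1h2ad, at 6.14, 12.7 and 8.55 TPM in DN2b, is listed at 0 in both DN3a libraries. Hist4h4 read 2.50, 4.74 and 3.28 TPM, then 0.815 and 0.280 TPM (−2.56, SE 0.47, adjusted p = 0.000699).

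A smaller set did not pass the test as lower. Hist3h2a read 24.2, 32.7 and 35.4 TPM in DN2b and 40.3 and 32.8 TPM in DN3a (0.26, SE 0.17, adjusted p = 0.238), and Hist2h2be 15.2, 14.6 and 18.8 TPM and 17.1 and 19.7 TPM (0.19, SE 0.16, adjusted p = 0.358). Their ranges overlapped. Hist3h2ba read 13.5, 18.8 and 27.8 TPM, then 40.4 and 28.3 TPM (0.82, SE 0.32, adjusted p = 0.0486), one of the calls that rescaling ends. The other was Hist2h3c1, an H3 gene at 0.297 to 0.335 TPM, then 1.28 and 0.923 TPM (adjusted p = 0.0479). Hist1h2aa, 1 copy of Hist1h4n, Hist2h3c2 and Hist3h2bb-ps, named here after their values were seen, passed in neither direction (log2 differences of −0.91, −0.54, 0.46 and −0.53). Hist1h1c and Hist1h2bc fell, but by less than most: Hist1h1c from 38.9, 63.4 and 63.0 TPM to 25.5 and 12.6 TPM (−1.58, SE 0.33, adjusted p = 0.00162) and Hist1h2bc from 52.0, 79.5 and 61.4 TPM to 14.5 and 11.2 TPM (−2.30, SE 0.23, adjusted p = 3.67e-06). As a result the Hist3 genes made 36.5 and 36.6% of the family's sum in DN3a, against 1.84 to 2.92% in DN2b. Of 52 tested members whose transcript ends within 8 bases of the stem-loop, 46 were lower (median −4.87), as were all 4 that run past it (−3.02) and 1 of 3 with no match (−0.53).

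**Figure D4:**
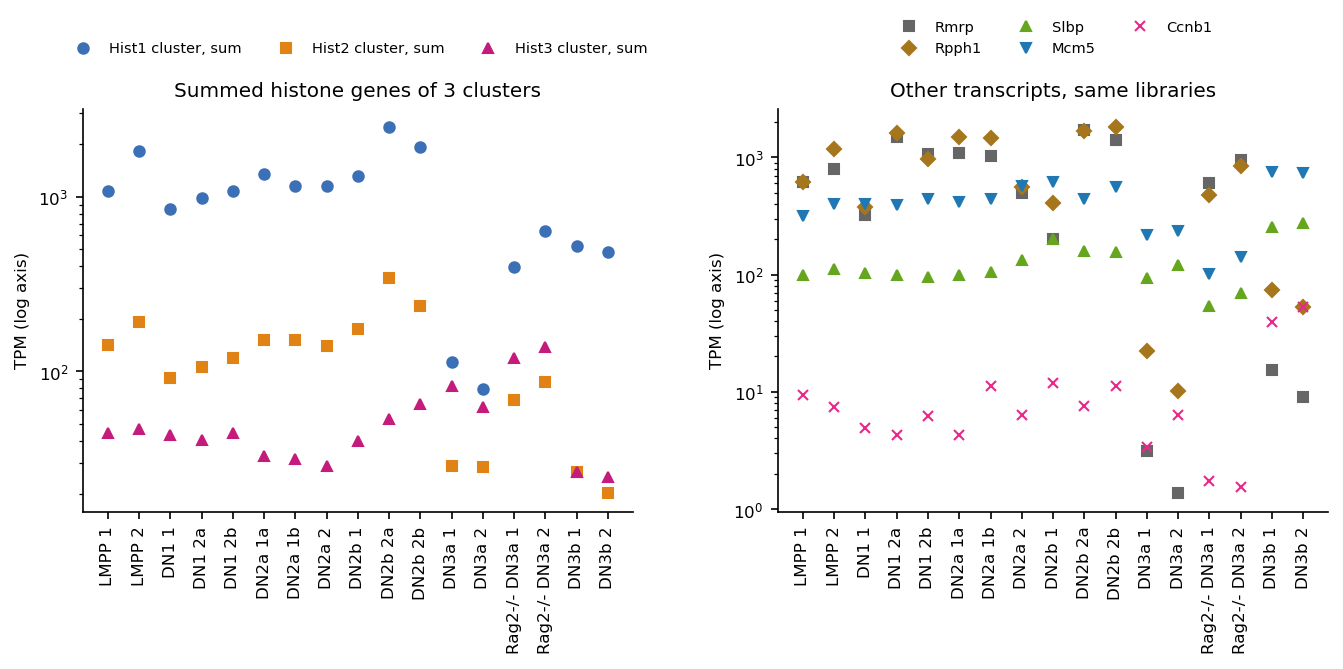
Left, summed TPM of the Hist1, Hist2 and Hist3 clusters in each of the 17 lymphoid libraries; right, TPM of Rmrp, Rpph1, Slbp, Mcm5 and Ccnb1 in the same libraries (log axes). The Hist1 sum drops from 1317 to 2493 TPM in DN2b to 79.4 and 114 TPM in DN3a while the Hist3 sum goes from 39.9 to 65.5 TPM to 62.4 and 82.3 TPM, and Rmrp drops from 201 to 1705 TPM in LMPP to DN2b to 1.36 and 3.10 TPM in DN3a.

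RNAs that carry no poly(A) tail moved with the histone genes over these libraries, and their part was not tested. Of 11 such RNAs, 7 were lower and 1 higher in DN3a than in DN2b (median log2 difference −4.43), and their sum was 72.6 and 45.6 TPM in DN3a, 111 and 83.7 TPM in DN3b and 778 to 3922 TPM in the 13 other libraries. Rmrp, the RNA subunit of RNase MRP, read 3.10 and 1.36 TPM in DN3a, 15.3 and 8.97 TPM in DN3b, 601 and 950 TPM in Rag2(-/-) DN3a and 201 to 1705 TPM in LMPP to DN2b. Whether all lymphoid libraries were made with the same selection for poly(A) RNA is not given in the sources used here. A difference in library preparation and a difference between stages cannot be told apart for the members that fell. Genes of S phase also moved: 0 of 44 were higher and 35 lower in DN3a than in DN2b, with a median of −0.90, and 25 of 30 genes of G2 and mitosis were lower (−1.57).

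**Figure D5:**
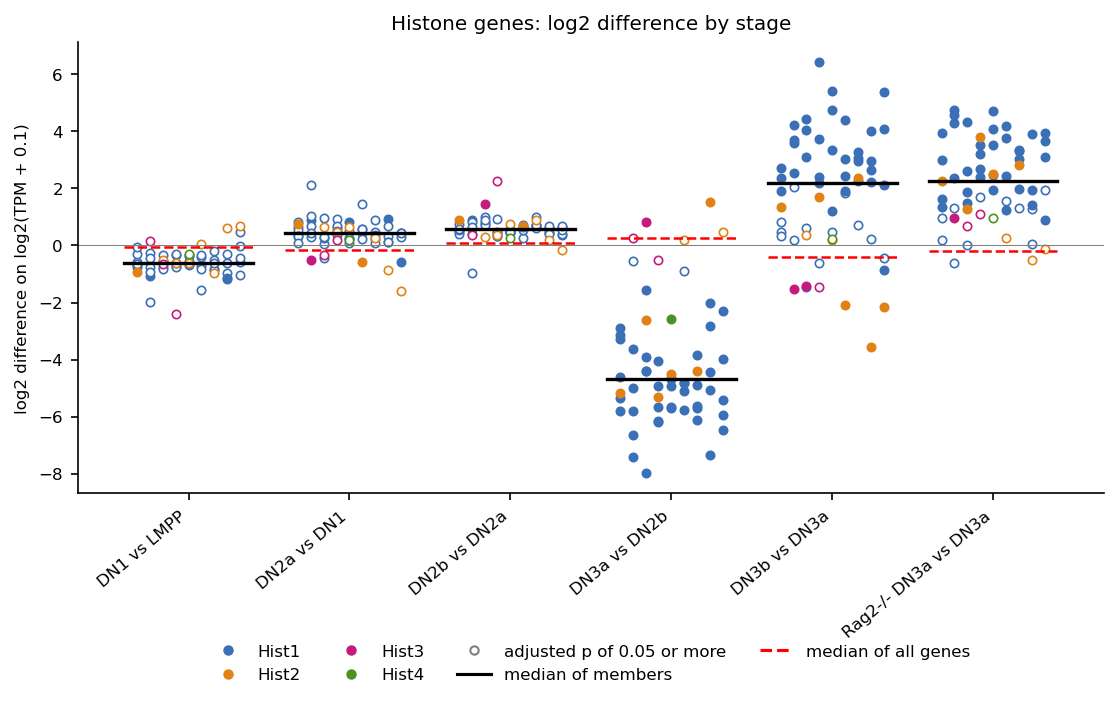
Log2 difference of each tested histone gene between lymphoid groups, coloured by cluster; filled points passed the test, black lines are the members' medians and red dashed lines the medians of all genes tested. The medians are −4.69 from DN2b to DN3a, 2.19 from DN3a to DN3b and 2.25 in Rag2(-/-) against wild-type DN3a, while the 3 Hist3 genes lie near or above 0 in DN3a.

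From DN3a to DN3b, stages told apart by CD28 and CD71, 36 members were higher (14.2% of all genes) and 7 lower (39.2%), with a median of 2.19 beside −0.41. The classes differed in their counts: 10 of 12 H3, 10 of 14 H2A, 9 of 12 H4 and 7 of 16 H2B genes were higher, and 0 of 5 H1 genes, of which 1 was lower. The largest rises were in Hist1h3c (0 and 0.390 TPM, then 18.0 and 19.8 TPM; 6.42, SE 0.51, limma adjusted p = 3.18e-07), Hist1h2ai (1.08 and 0.476 TPM, then 36.9 and 33.9 TPM; 5.42, SE 0.43, adjusted p = 2.78e-07), Hist1h3h (5.37, SE 0.50, adjusted p = 1.15e-06), Hist1h2bj (1.12 and 2.46 TPM, then 46.0 and 49.8 TPM; 4.76, SE 0.35, adjusted p = 1.49e-07) and Hist1h2ag (4.42, SE 0.51, adjusted p = 8.81e-06). The last of these reached 62.7 and 56.2 TPM, and in Rag2(-/-) DN3a it read 1.19 and 6.15 TPM. Of the 8 members that had not passed as lower in DN3a, 5 now fell, Hist2h3c1 and Hist2h3c2 among them. Hist2h2be went to 4.46 and 4.09 TPM (−2.07, SE 0.17, adjusted p = 4.91e-07), Hist3h2a to 14.6 and 10.8 TPM (−1.53, SE 0.19, adjusted p = 1.57e-05) and Hist3h2ba to 11.8 and 13.4 TPM (−1.42, SE 0.35, adjusted p = 0.00334). Hist1h1c (7.97 and 5.37 TPM; −1.44, SE 0.36, adjusted p = 0.00385) and Hist1h2bc (8.60 and 5.71 TPM; −0.85, SE 0.25, adjusted p = 0.00973) fell further, and Hist4h4 did not pass (0.24, adjusted p = 0.731). Linker histone genes made 3.68 and 2.72% of the family's sum in DN3b and 11.3 to 18.1% in the other 15 libraries. Genes of S phase (41 of 44) and of G2 and mitosis (30 of 30) were higher in DN3b, while of the RNAs without a poly(A) tail 3 were higher and 1 lower (median −0.24). The part of these lists was not tested. Whether DN3a and DN3b libraries were prepared alike is not given in the sources used here. Stage and library preparation therefore cannot be told apart in this step either. With DN3b in place of DN3a, an alternative chosen after the data were seen, 45 members were lower than in DN2b (27.8% of all genes), with a median of −2.37.

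In the libraries of Rag2(-/-) DN3a cells, held at the same stage, the family read higher than in those of wild-type DN3a. Of 59 members 42 were higher (6.91% of all genes) and none was lower, with a median log2 difference of 2.25 beside −0.18. Rescaling moved the median of all genes to −0.03 and gave 43. Over all genes the split moved from 931 higher and 2629 lower to 1507 and 2260. All 5 H1 genes were higher (median 2.35), with 9 of 14 H2A, 11 of 16 H2B, 9 of 12 H3 and 8 of 12 H4 genes. Hist1h2af read 19.6 and 26.0 TPM against 0.542 and 1.02 TPM (4.74, SE 0.33, limma adjusted p = 2.75e-06), and Hist1h4d 58.8 and 84.0 TPM against 2.73 and 2.4 TPM (4.73, SE 0.34, adjusted p = 2.75e-06). These were clear of the wild-type libraries. Hist1h2bf (4.58, SE 0.41, adjusted p = 1.39e-05), Hist1h3b (4.33, SE 0.60, adjusted p = 0.000305) and Hist1h4a (4.28, SE 0.64, adjusted p = 0.000515) were next. Hist1h1c read 60.5 and 72.2 TPM (1.88, SE 0.36, adjusted p = 0.00217), Hist3h2a 65.0 and 78.2 TPM (0.97, SE 0.19, adjusted p = 0.00253) and Hist1h2bc 19.1 and 30.0 TPM (0.90, SE 0.25, adjusted p = 0.0165). Hist2h2be (20.6 and 23.1 TPM; 0.25, adjusted p = 0.309), Hist3h2ba (52.6 and 55.1 TPM; 0.67, adjusted p = 0.169) and Hist4h4 (0.98, adjusted p = 0.178) did not pass. Here the cell cycle lists went the other way: 35 of 44 S phase and 24 of 30 G2 and mitosis genes were lower, while 7 of 11 RNAs without a poly(A) tail were higher (median 3.86). Macrophage markers were higher in 5 of 8 cases (sums 81.2 and 140 TPM against 62.9 and 56.4 TPM). The part of these lists was not tested. Whether both groups had the same library preparation is not given in the sources used here. Genotype and library preparation therefore cannot be told apart in this comparison. Rag2 read 35.5 and 42.2 TPM in Rag2(-/-) and 48.7 and 75.5 TPM in wild-type DN3a, so its gene-level value does not read the deletion. With Rag2(-/-) in place of wild-type DN3a, also chosen after the data were seen, 48 members were lower than in DN2b (22.3% of all genes), with a median of −2.14.

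The genes that make and handle histone messages moved less than the members. Of 31 genes of histone mRNA transcription and 3′ end formation tested in the pro-B series, 3 were higher and 5 lower in Vav-Cre Pax5(fl/fl) (median log2 difference −0.08), and of 32 in the lymphoid files 6 were higher and 10 lower in DN3a (−0.02) and 14 higher and 3 lower in DN3b (0.30). Slbp, which binds the stem-loop, read 195.7 to 252 TPM in the 50 nt Pax5(+/+) libraries and 141 and 152 TPM in Vav-Cre Pax5(fl/fl) (−0.58, SE 0.17, limma adjusted p = 0.013). It read 199, 159 and 156 TPM in DN2b, 93.4 and 120 TPM in DN3a (−0.69, SE 0.16, adjusted p = 0.00362) and 257 and 274 TPM in DN3b (1.33, SE 0.18, adjusted p = 2.9e-05). Npat, the coactivator that drives transcription of the members in S phase, did not pass in Vav-Cre Pax5(fl/fl) (−0.27, SE 0.20, adjusted p = 0.328) and was higher in DN3a (0.87, SE 0.23, adjusted p = 0.00735). Of 20 histone chaperones, which carry histones to DNA, 1 was higher and 4 lower in Vav-Cre Pax5(fl/fl) (−0.18). The replication-linked chaperone Asf1b was among the lower ones (−2.4, SE 0.10, adjusted p = 1.19e-11). Histone variants, whose genes give polyadenylated messages outside S phase too, were lower in 6 and higher in 1 of 11 cases in Vav-Cre Pax5(fl/fl) (−0.70) and lower in 8 and higher in 1 of 12 in DN3a (−0.73). Their summed level did not fall in Vav-Cre Pax5(fl/fl), at 7344 and 6732 TPM against 5087 to 6630 TPM in Pax5(+/+). In DN3a it was 2924 and 2821 TPM against 4308 to 4756 TPM in DN2b. Among the variants, the H1 variant gene H1fx was lower in Vav-Cre Pax5(fl/fl) (−3.04, SE 0.24, adjusted p = 2.02e-08) and in Pax5(DCRD1,2/DCRD1,2) (−2.90, SE 0.26, adjusted p = 3.31e-07). H2afx, the H2A variant phosphorylated at DNA breaks, was lower in both too (−2.55, SE 0.16, adjusted p = 1.54e-09, and −1.72, SE 0.18, adjusted p = 1.62e-06). Slbp, Npat, Asf1b, H1fx and H2afx belong to the lists and were named after their values were seen.

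Across the 20 comparisons made, the members called most often were Hist3h2ba and Hist2h4, in 10 each, Hist3h2a in 9 and Hist1h1c in 8. Hist3h2ba was lower in all 7 comparisons of cells without CRD1, without Pax5 or with the paired domain alone with their controls. Hist2h4 was lower in 4 comparisons of the pro-B series and was called, in either direction, in all 6 of the lymphoid files. Many of these comparisons share their control libraries, so the counts are not independent.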

How the data were processed

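RNA was sequenced from 48 libraries, 31 of early B cells and 17 of lymphoid and T cell precursors. For the pro-B series the authors trimmed reads to 50 bases, aligned them with STAR 2.4.2a to GRCm38/mm10, counted unique alignments over RefSeq genes and deposited TPM; selection for poly(A) RNA is stated for ex vivo sorted pro-B cells. The lymphoid files, aligned with TopHat 1.4.1 to mm9, hold TPM that the authors wrote in 2 rows per gene, which were averaged, an exact 1 being read as 0. In 8 deposited TPM files without gene names the row order of a named file was used, after a check of the ratios over 14405 rows. Raw count columns deposited beside TPM for some samples gave no test (6 such per-sample columns were not used). From each TPM column whole reads were recovered by the size of its steps, in 100% of values within 0.05.

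Members and gene lists were chosen with earlier results of these data known. Differences were fitted with limma 3.58.1 (R 4.3.3) on log2(TPM + 0.1), with a variance trend, over genes above 1 TPM in at least 1 sample, with Benjamini-Hochberg adjustment over all genes tested and calls at 0.05. There were 3 fits: 25 libraries with a read length term (13 residual degrees of freedom), the 6 of the Prd experiment (3) and the 17 lymphoid ones (10). A difference on this scale understates the change of low genes. Read lengths came from the study's sample list. Named were the 2 highest members of each class in Pax5(+/+), up to 5 members with the largest called differences per comparison, Hist1h1c, Hist1h2bc, Hist2h2be, Hist3h2a and Hist4h4 throughout, and the highest member of each class in the lymphoid files. Members at 0 everywhere were only counted. Alternatives were a pseudocount of 1, no filter, no trend, TPM rescaled by the median ratio over genes above 10 TPM in every sample, edgeR 4.0.16 (quasi-likelihood) on the recovered reads, no read length term, the 2 groups alone, a replicate block, the lower or upper of the 2 lymphoid rows, sums without Hist3h2a, and each library left out. Sequence came from RefSeq for GRCm38.p6, read with pysam 0.24.0. The scripts were tested on simulated data. Intervals and floors cover counting error only. A check of 1 marker of the sort is not reported here.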

Additional observations from a re-analysis of the deposited data

Results flagged for a closer look

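A pair of members had 1 library far from the other Pax5(+/+) libraries (its gap to the nearest was past Dixon's 95% value for the group's range, which chance gives in about 1 in 20 groups). Hist1h1c, a linker histone gene, read 35.5 TPM in replicate 5 and 29.3 to 29.9 TPM in the other 4 libraries (gap over range 0.915). The H3 gene Hist1h3d read 4.04 TPM in replicate 4 and 2.05 to 2.47 TPM in the others (0.788). Replicate 5 was sequenced at 50 nt and replicate 4 at 100 nt.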

How the results depend on the processing

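The calls of the largest contrasts kept their direction under each alternative named among the methods: 51 members lower in DN3a than in DN2b, 42 higher in Rag2(-/-) DN3a and 36 higher in DN3b stayed within 1.5 times of these counts, as did the 31 lower in Vav-Cre Pax5(fl/fl) except without 1 library. Small counts moved. Without the read length term they were 1 in Pax5(DHD/DHD), 2 in Pax5(DCRD1/-) and 10 in Pax5(DCRD1,2/-). For Pax5(DCRD1,2/-) edgeR, no filter, no trend and the 2 groups alone each gave 3. For Pax5(DCRD1,2/DCRD1,2) edgeR gave 4, and no filter, no trend and rescaling gave 5 each. Between Vav-Cre Pax5(Prd/fl) and Vav-Cre Pax5(fl/fl), edgeR, no filter, no trend and a pseudocount of 1 gave 1 each. With a pseudocount of 1 there were 6 calls from LMPP to DN1, 11 from DN1 to DN2a and 7 from DN2a to DN2b. From DN1 to DN2a no trend gave 4 and averaging libraries of the same number 1, and from DN2a to DN2b no filter and rescaling gave 2 each.

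Replicate numbers were not taken to pair samples. In none of the 3 fits did every same-numbered pair deviate together at a correlation over 0.1 (−0.111, −0.101 and 0.0401 in the Prd experiment). Some lymphoid libraries with different numbers did deviate together, as DN2a replicate 2 with DN2b replicate 1 (0.276) and LMPP replicate 2 with DN2b replicate 1 (0.196). Others went the other way, as LMPP replicate 1 with DN2a replicate 2 (−0.142). No fit took such sets into account, and their part in the steps from LMPP to DN2b was not tested. With a replicate block the counts were 1 in Pax5(DCRD1/DCRD1), 5 from LMPP to DN1 and 2 from DN2a to DN2b, and the block moved no other count by over 1.5 times.

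Leaving out 1 library at a time gave, in numbers of calls, 0 to 1 for Pax5(DHD/DHD), Pax5(DCRD1/-) and the read lengths, 3 to 8 for Pax5(DCRD1,2/-), 19 to 31 for Vav-Cre Pax5(fl/fl), 0 to 5 for Pax5(DCRD2/DCRD2), 1 to 5 for Pax5(DCRD1/DCRD1) and 2 to 9 for Pax5(DCRD1,2/DCRD1,2). In the Prd experiment it gave 0 to 6 between the mutants, 13 to 24 for Vav-Cre Pax5(fl/fl) and 26 to 39 for Vav-Cre Pax5(Prd/fl), and in the lymphoid files 0 to 4, 1 to 8 and 2 to 11 for the steps from LMPP to DN2b. A group left with 1 library is assumed to vary like the others. The log2 ratio of summed TPM went from 0.53 to −0.10 for Pax5(DOP/DOP), reversed without its replicate 2, from −1.28 to −0.87 for Vav-Cre Pax5(fl/fl), from −0.62 to −0.25 for Pax5(DCRD1/DCRD1) and from −0.89 to −0.17 for DN1 against LMPP. The cause was not tested in any of these. Depth limits single members most in Vav-Cre Pax5(fl/fl), and in the lymphoid files it is unknown.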
